A study of Rattus norvegicus with 9 samples.

Results

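The Slco genes encode the organic anion transporting polypeptides, and 6 of them were followed here in kidneys of rats given colistin methanesulfonate. Members were selected from results of these same arrays, with their differences between doses in view, and found as probe sets annotated to exactly 1 gene among 7 listed symbols. Of the 7 genes, 6 had at least 1 such probe set, of 14217 genes with a probe set in all. These were Slco1a1, Slco1a6, Slco2a1, Slco2b1, Slco3a1 and Slco4a1, with 10 probe sets between them, and Slco4c1 had none. Because the choice used the differences between doses, those differences are given as a description, without a p-value. Calls are counted only to set them beside the calls over all genes.

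Each group held 3 Sprague-Dawley rats, an outbred stock, which were 8 weeks old at purchase and had 1 further week to acclimate. The labels do not give their sex. All rats received an intraperitoneal injection each day for 7 days. The vehicle group received saline (0 mg/kg), and the other groups received colistin methanesulfonate sodium (CMS), an inactive form that the body turns into the antibiotic colistin, at 25 mg/kg (CMS25) or 50 mg/kg (CMS50). The labels record no lesion in the vehicle group, basophilia and dilated tubules in CMS25, and necrosis, degenerated tubules and eosinophilic casts in CMS50. RNA of the whole right kidney was read on 1 Affymetrix rat array per rat, and values are log2 intensities, so a difference of 1 is a 2-fold change. The number of arrays limits the precision. Kidney markers were bright, with uromodulin (Umod) at a vehicle mean of 13.72 and megalin (Lrp2) at 13.33. Levels of different probe sets are not comparable with each other, and in whole-kidney RNA fewer cells of a type cannot be told apart from less RNA per cell.

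Organic anion transporting polypeptides are membrane carriers that exchange bile salts, steroid conjugates, thyroid hormones, prostaglandins and many drugs without using the sodium gradient. In the kidney, members of the 1a subfamily lie mainly in the proximal tubule, where they handle filtered or secreted organic anions. Others are found in many tissues, among them Slco2a1, which takes prostaglandins back into cells before they are degraded.

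In the rat the Slco1 genes form a cluster on chromosome 4. In the RefSeq gene table of GRCr8, used for names and order only, the order was Slco1c1, Slco1b2, Slco1a4, Slco1a1, Slco1a3, Slco1a6 and Slco1a5. Slco1a1, Slco1a3 and Slco1a6 thus stood next to each other, with 0 other protein-coding genes between them. Promoter windows from RefSeq (GRCr8; 250 bases before to 50 after the annotated start, 300 bases in all) are shown for these neighbours, for Slco1a4 beside them, and for Slco4a1, the member with the highest difference in CMS50. They are shown because the first 3 genes were lower together in CMS50, whereas Slco1a4 differed little and Slco4a1 was higher. Capitals mark the letters GCGTG, the core of the response element of the aryl hydrocarbon receptor.

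Slco1a1, chr4:176681943-176682242, minus strand: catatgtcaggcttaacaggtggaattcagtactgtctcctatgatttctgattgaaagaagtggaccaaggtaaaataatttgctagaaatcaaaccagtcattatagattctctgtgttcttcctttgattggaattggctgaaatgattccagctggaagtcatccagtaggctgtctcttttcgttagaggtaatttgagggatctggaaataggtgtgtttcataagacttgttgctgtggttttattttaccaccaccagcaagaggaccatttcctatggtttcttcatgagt

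Slco1a3, chr4:176749674-176749973, minus strand: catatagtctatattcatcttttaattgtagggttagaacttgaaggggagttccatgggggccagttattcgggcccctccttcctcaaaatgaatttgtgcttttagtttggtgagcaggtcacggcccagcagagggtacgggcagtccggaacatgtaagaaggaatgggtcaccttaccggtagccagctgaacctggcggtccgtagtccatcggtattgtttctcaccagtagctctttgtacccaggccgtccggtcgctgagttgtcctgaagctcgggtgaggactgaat

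Slco1a6, chr4:176838983-176839282, minus strand: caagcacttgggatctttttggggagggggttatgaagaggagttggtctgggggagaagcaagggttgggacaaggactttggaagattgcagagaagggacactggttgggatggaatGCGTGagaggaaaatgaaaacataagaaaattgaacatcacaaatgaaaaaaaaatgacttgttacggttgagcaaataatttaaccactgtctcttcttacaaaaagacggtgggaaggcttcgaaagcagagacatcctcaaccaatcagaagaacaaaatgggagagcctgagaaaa

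Slco1a4, chr4:176495797-176496096, minus strand: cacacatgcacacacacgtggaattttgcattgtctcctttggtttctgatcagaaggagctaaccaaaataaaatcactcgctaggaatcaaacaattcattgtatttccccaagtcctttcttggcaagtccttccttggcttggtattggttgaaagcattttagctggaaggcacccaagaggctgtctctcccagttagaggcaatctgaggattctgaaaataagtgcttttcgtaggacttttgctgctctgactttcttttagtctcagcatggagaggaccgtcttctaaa

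Slco4a1, chr3:187936632-187936931, plus strand: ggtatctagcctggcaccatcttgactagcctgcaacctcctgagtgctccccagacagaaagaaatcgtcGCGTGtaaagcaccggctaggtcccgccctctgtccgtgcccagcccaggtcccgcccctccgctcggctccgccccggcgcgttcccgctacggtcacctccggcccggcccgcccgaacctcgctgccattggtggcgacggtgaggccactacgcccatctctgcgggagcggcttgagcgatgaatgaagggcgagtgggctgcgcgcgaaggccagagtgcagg

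The windows of Slco1a1 and Slco1a4 were the most alike among 36 pairs of Slco promoters compared by global alignment, with 207 identical bases over an alignment of 317 (65.3%). The remaining pairs had 40.4% to 49.2% identity. Slco1a1 and Slco1a6 had 43.3%, Slco1a1 and Slco1a3 46.1%, and Slco1a3 and Slco1a6 47.3%, all within the range of the remaining pairs. GC content was 39% in the Slco1a1 window, 51.3% for Slco1a3, 43% for Slco1a6 and 67.7% for Slco4a1. On both strands, the letters GCGTG occurred once in the windows of Slco1a6, at base -130 from the start, and Slco4a1, at base -179. They were not in the windows of Slco1a1, Slco1a3 or Slco1a4, and 29.7% of 33469 promoters in the table hold them. GTTAAT, from the motif of the tubule factor HNF1, and TATAAA, the TATA box, were in none of the 5 windows printed, against 7.45% and 14.2% of all promoters.

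The 1a members carried far less signal in CMS50 kidneys. Slco1a1 (probe set 1387567_at), which encodes a carrier of the brush border in the last part of the proximal tubule, read 11.03, 11.20 and 11.18 in vehicle replicates 1, 2 and 3. It read 10.68, 10.69 and 11.53 in CMS25, and 6.63, 6.29 and 9.66 in CMS50. Every CMS50 rat lay below every other rat, and CMS50 replicate 3 lay between the other CMS50 rats and the vehicle group. The means were 7.53 ± 1.85 (SD, n = 3) in CMS50 and 11.14 ± 0.09 in vehicle, a difference of -3.60 (standard error, SE, 0.73; 95% interval of the fit -5.25 to -1.95), or 12.2-fold lower.

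Slco1a6 (1369401_at), a relative expressed in rat kidney, had the same order of rats in CMS50. It read 11.30, 12.02 and 11.81 in vehicle, 11.17, 11.11 and 12.02 in CMS25, and 9.39, 8.54 and 10.71 in CMS50. The CMS50 values did not overlap those of either other group, and replicate 3 was again the highest of the 3. The difference between CMS50 and vehicle was -2.16 (SE 0.48), or 4.47-fold lower.

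Slco1a3, known as OAT-K1, a brush border carrier of methotrexate and other anions, was not among the chosen genes. It lies between the pair just described and had 2 probe sets. Probe set 1368498_a_at read 11.39, 11.29 and 11.98 in vehicle, 11.11, 11.17 and 11.81 in CMS25, and 9.69, 9.96 and 11.29 in CMS50. The highest CMS50 value equalled the lowest vehicle value to 2 decimals. Slco1a3 fell by 1.24 in CMS50 against vehicle (SE 0.39, limma adjusted p = 0.0390). Fitting vehicle and CMS50 alone ended the call, as did leaving out vehicle replicate 1, 2 or 3, CMS25 replicate 2, or CMS50 replicate 1 or 2, and the adjusted p ran from 0.00215 to 0.136 over 19 alternatives. Its other probe set, 1387974_a_at, differed by -1.68. Slco1a1, Slco1a3 and Slco1a6 are related in sequence, so how far each probe set also reads its relatives is uncertain.

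The rest of the cluster gave little signal. Slco1a4, a carrier better known from liver and the blood-brain barrier, read 5.78, 5.72 and 5.36 in vehicle and 5.59, 5.58 and 5.70 in CMS50. Its difference was 0.00 (SE 0.20; 95% interval -0.45 to 0.46; limma adjusted p = 0.990). Slco1a5, Slco1b2 and Slco1c1 stayed under the minimum mean of 5 and were not tested, as did Slco5a1 and Slco6b1 outside the cluster. Among these dim probe sets, 1387679_at of Slco1b2, the main liver carrier of this family, read 4.27, 3.56 and 3.70 in vehicle, 3.13, 3.16 and 3.18 in CMS25 and 2.88, 3.12 and 3.14 in CMS50. All vehicle values lay above all treated values there, but the other Slco1b2 probe set differed by only -0.04 in CMS50. Of the nearest tested genes outside the cluster, chosen after the values were seen, Plekha5 rose by 0.44 (SE 0.14, adjusted p = 0.0435). Aebp2 differed by 0.15, Recql by 0.22 and Ldhb by 0.12, with adjusted p-values of 0.195, 0.0696 and 0.547.

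**Figure D1:**
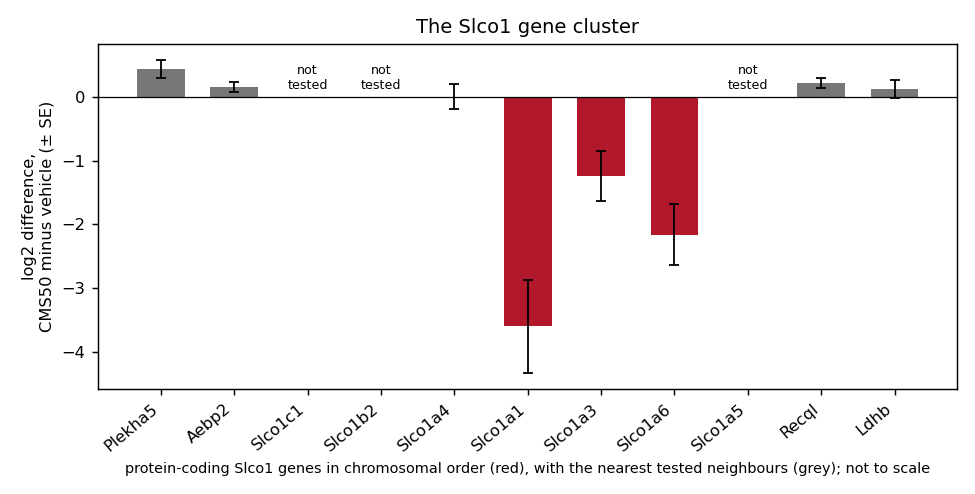
Bars give the log2 difference of CMS50 minus vehicle (error bars ± SE of the fit) for the Slco1 genes in chromosomal order (red) and the nearest tested genes on either side (grey); distances are not to scale. Slco1a1, Slco1a3 and Slco1a6 lay at -3.60, -1.24 and -2.16, whereas Slco1a4 lay at 0.00 and the flanking genes between 0.12 and 0.44.

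Members outside the 1a subfamily were level or higher in CMS50. Slco4a1, a widely expressed carrier of thyroid hormone, read 4.76, 5.49 and 4.52 with probe set 1389067_at in vehicle, 6.10, 4.46 and 5.17 in CMS25, and 7.24, 7.08 and 6.28 in CMS50. All 3 CMS50 rats lay above all others, and CMS25 replicate 1 was the highest of the remaining rats. The mean was 6.87 ± 0.51 in CMS50 against 4.92 ± 0.50 in vehicle, a difference of 1.94 (SE 0.42), or 3.85-fold higher. The vehicle mean lay under the minimum of 5, so this gene passed it only through the treated groups, and the fold is approximate. The dimmer probe set 1369437_at gave 0.46, and 1.20 was the difference with both probe sets averaged.

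Slco2b1, a carrier of steroid sulfates and statins, read 6.67, 6.06 and 6.14 with probe set 1368295_at in vehicle. It read 7.07, 6.39 and 6.17 in CMS25 and 7.25, 7.60 and 6.90 in CMS50. The CMS50 rats lay above all vehicle rats but overlapped CMS25, where replicate 1 was high. The difference from vehicle was 0.96 (SE 0.26), or 1.94-fold. It was 0.55 with both probe sets averaged, since the dimmer 1368296_at differed by 0.15, and its call was lost without vehicle replicate 2 or 3 or CMS50 replicate 1 or 2.

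Slco2a1, the prostaglandin transporter, read 8.05, 8.14 and 7.99 with probe set 1372889_at in vehicle, 8.62, 7.94 and 8.11 in CMS25 and 8.35, 8.60 and 8.31 in CMS50. CMS50 did not overlap vehicle, although CMS25 replicate 1 exceeded every CMS50 rat. With the dimmer probe set, 1387492_at, the groups overlapped and the difference was 0.19. The difference between CMS50 and vehicle was 0.36 (SE 0.16; 95% interval -0.01 to 0.73) with the brighter probe set and 0.27 with both averaged. It passed the threshold with only the 2 groups compared and without CMS25 replicate 1, and not in the fit of all 9 arrays.

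Slco3a1, a broadly expressed carrier of prostaglandins and thyroxine, read 7.52, 7.80 and 7.96 with probe set 1373734_at in vehicle. It read 7.64, 7.10 and 7.43 in CMS25 and 8.00, 7.94 and 7.85 in CMS50. CMS25 was the lowest group here and CMS50 overlapped vehicle, with differences from vehicle of -0.37 (SE 0.15) and 0.18 (SE 0.15). Its other probe set, 1370571_at, went the opposite way in CMS50, at -0.27, and the average of both was -0.05.

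**Figure D2:**
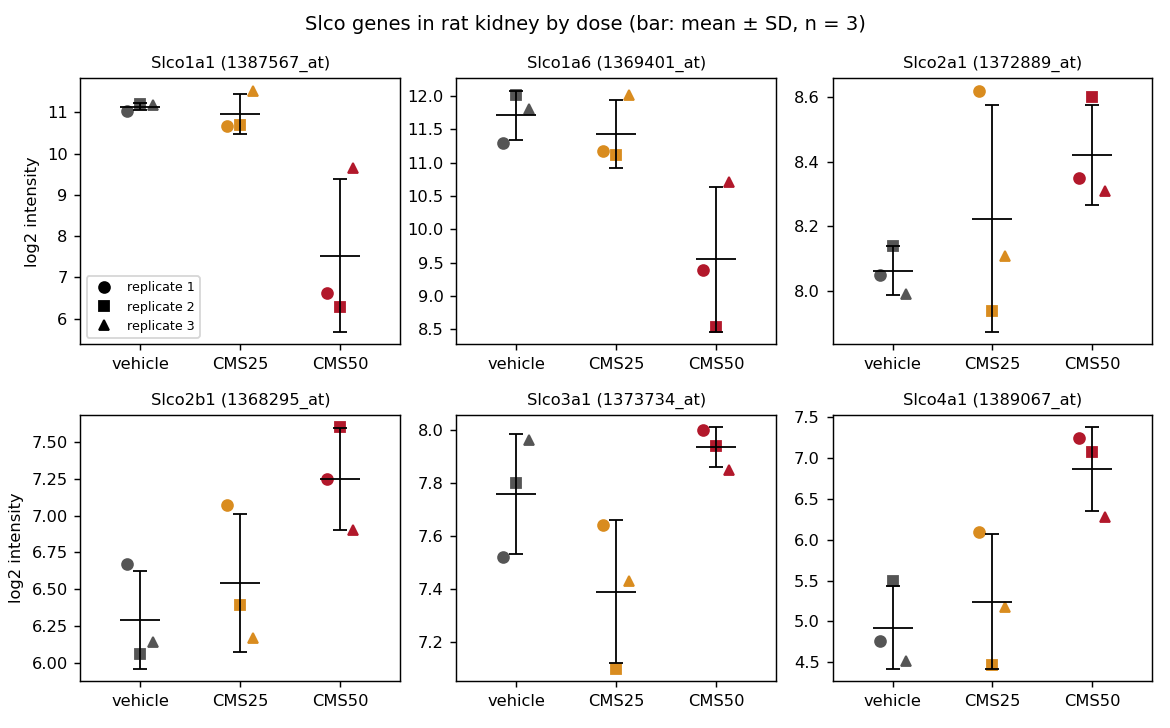
Each panel plots the log2 intensity of 1 member's brightest probe set in every rat (symbols give the replicate number) with the group mean ± SD (n = 3). Slco1a1 and Slco1a6 were lowest in CMS50 and Slco4a1 highest in CMS50, with replicate 3 of CMS50 nearest to the vehicle rats in each of these panels.

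Counted over the 6 members, 4 were called at an adjusted p under 0.05 in CMS50 against vehicle: Slco1a1 and Slco1a6 lower, Slco2b1 and Slco4a1 higher. Over all 10337 genes tested, 31.1% were called, 19.6% higher and 11.4% lower. The arrays of the groups did not overlap for 5 of 6 members and for 49.6% of all genes. Since the choice of members used this contrast, nothing is read from these counts.

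At the lower dose the members differed little from vehicle. In CMS25 against vehicle, differences of the brightest probe sets ran from -0.37 for Slco3a1 to 0.32 for Slco4a1, and with these the 2 groups overlapped for all 6 members. With the dimmer probe sets they did not overlap for Slco4a1, which read 4.71, 4.60 and 4.74 in CMS25 against 4.49, 4.51 and 4.39 in vehicle, or for Slco3a1, which differed by -0.29. The share of all genes without overlap was not counted for CMS25 against vehicle, so nothing is read from these overlaps. Slco1a1 was at -0.17 (95% interval -1.82 to 1.48) and Slco1a6 at -0.28 (-1.37 to 0.81), so the intervals leave room for sizeable differences in either direction. limma called 0 of 6 members and 0% of all 10337 genes, with 0 genes called in each of the 19 alternatives. At an unadjusted p under 0.05 there was 1 member, Slco3a1, and 5.84% of genes. Within CMS25, replicate 3 had the highest Slco1a1 and Slco1a6 values, 0.39 and 0.31 above the vehicle mean, while replicates 1 and 2 lay 0.44 to 0.60 below it. With the brightest probe sets, replicate 1 had the highest Slco2a1, Slco2b1, Slco3a1 and Slco4a1 values. Without replicate 1, the differences of Slco2a1, Slco2b1 and Slco4a1 from vehicle were -0.04, -0.01 and -0.11. With the dimmer probe sets of Slco2a1, Slco2b1, Slco3a1 and Slco4a1, replicate 3 was the highest CMS25 rat for each.

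Between the treated groups, CMS50 stood apart from CMS25 for most members when read from their brightest probe sets. Slco1a1 was 10.8-fold lower in CMS50 than in CMS25 (log2 difference -3.44, SE 0.73) and Slco1a6 3.69-fold lower (-1.88, SE 0.48). Slco4a1 was 3.08-fold higher (1.62, SE 0.42) and Slco3a1 1.46-fold higher (0.54, SE 0.15). Their dimmer probe sets differed by 0.24 and 0.02, the latter with overlapping arrays. With both probe sets averaged, the differences were 0.93 for Slco4a1 and 0.28 for Slco3a1. Slco2b1 and Slco2a1 differed by 0.70 (SE 0.26) and 0.20 (SE 0.16), with overlapping arrays. With their dimmer probe sets the differences were -0.18 and -0.05. From the brightest probe sets 4 of 6 members were called, Slco1a1, Slco1a6, Slco3a1 and Slco4a1, against 30.3% of all genes. Only Slco1a1 was called without CMS25 replicate 3, CMS50 replicate 1 or CMS50 replicate 2, Slco1a1 and Slco1a6 without CMS25 replicate 2, and all 6 without CMS25 replicate 1. The comparisons share arrays, so their differences are not independent of each other.

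**Figure D3:**
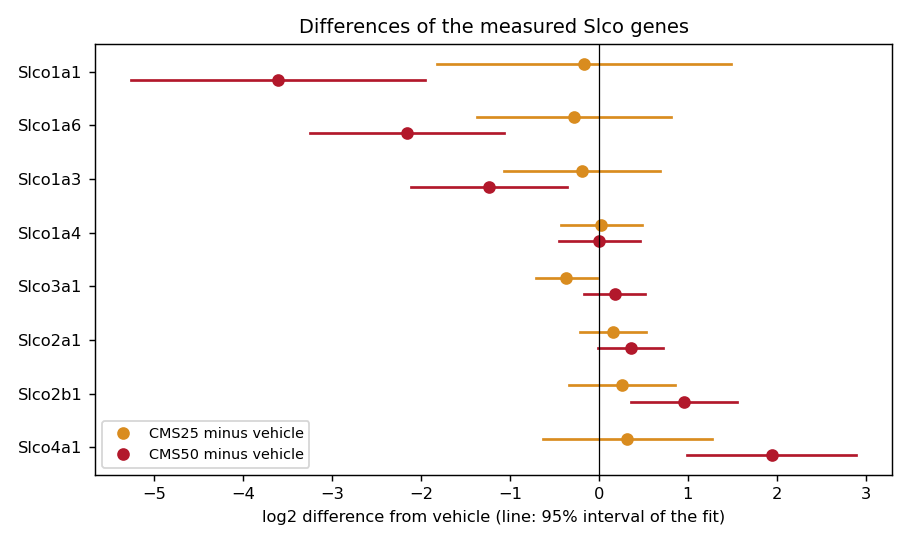
Points give the log2 difference from vehicle of CMS25 (orange) and CMS50 (red) for the 6 members and for Slco1a3 and Slco1a4, and lines their 95% intervals from the fit. All CMS25 intervals but that of Slco3a1 include 0, and CMS50 spans -3.60 for Slco1a1 to 1.94 for Slco4a1.

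Among the members, the 3 CMS50 rats differed most in Slco1a1 and Slco1a6. Relative to the vehicle mean, Slco1a1 was at -4.50, -4.84 and -1.47 in replicates 1, 2 and 3, and Slco1a6 at -2.32, -3.16 and -1.0. With the brightest probe sets, replicate 3 was nearest to the vehicle mean for all 6 members, including Slco4a1 (2.31, 2.16 and 1.36) and Slco2b1 (0.96, 1.31 and 0.61). With the dimmer probe sets of Slco2a1 and Slco2b1, replicate 1 was nearest instead. Without CMS50 replicate 3, Slco1a1 differed by -4.67 (SE 0.25), Slco1a6 by -2.74 (SE 0.35) and Slco4a1 by 2.24 (SE 0.44). The range of Slco1a1 was 3.37 within CMS50, 0.85 within CMS25 and 0.17 within vehicle.

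**Figure D4:**
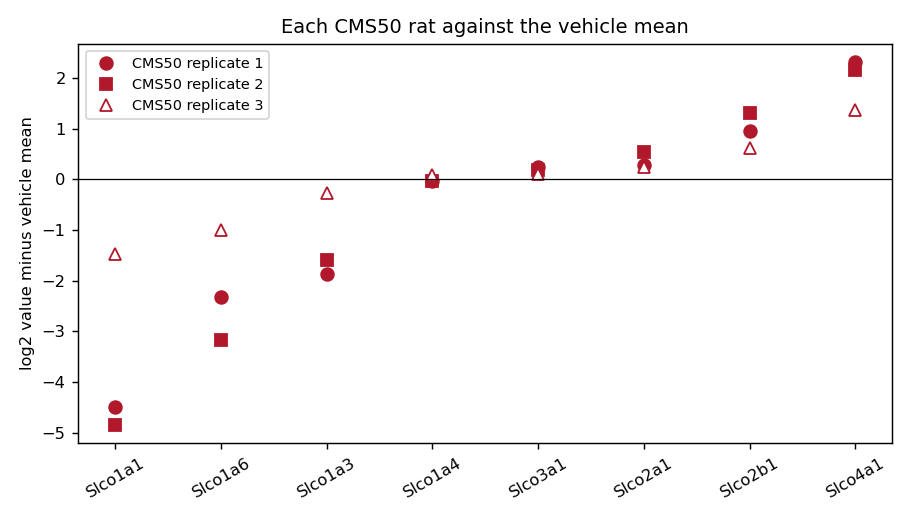
Symbols give each CMS50 rat's log2 value of the brightest probe set minus the vehicle mean, for the 6 members and for Slco1a3 and Slco1a4. Replicate 3 (open triangles) lies nearer to 0 than the other CMS50 rats for each of the 6 members, at -1.47 for Slco1a1 against -4.50 and -4.84.

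Likeness across the 9 arrays was read as a Pearson correlation of log2 values, without a p-value, because all genes share the arrays and the differences between doses. Slco1a1 and Slco1a6 correlated at 0.975, and at 0.914 after the group means were subtracted. Their ranges were 3.37 and 2.17 within CMS50, 0.85 and 0.91 within CMS25, and 0.17 and 0.72 within vehicle. The subtracted value thus rests mostly on the CMS50 rats, and how far these probe sets read each other is uncertain. Slco1a1 and Slco1a3 correlated at 0.940 (0.895 after subtraction). Slco2a1 and Slco4a1 correlated at 0.847 (0.841). Both ranged most widely within CMS25, by 0.67 and 1.65, where replicate 1 was highest with their brightest probe sets. Slco1a1 and Slco4a1 stood at -0.857 (-0.447). Slco1a6 and Slco2b1 had the lowest correlation among the members, -0.914 (-0.774).

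The genes tested that were most like Slco1a1 were Dhrs7l1 (0.996), Slc7a13 (0.996) and Eci3 (0.994). Slc7a13 encodes an amino acid transporter of the late proximal tubule. Those most like Slco1a6 were Slc7a12 (0.992), Fahd1 (0.991) and Slc22a2 (0.991), the last of which encodes the basolateral organic cation transporter OCT2. For Slco4a1 they were Enoph1 (0.997), Dkk3 (0.978) and Glce (0.973), and for Slco2b1 they were Ctsh (0.987), which encodes a lysosomal protease, Glmp (0.984) and Spin4 (0.979). Slco2a1 was most like Lst1 (0.964), Colec12 (0.953) and Cidea (0.948), and Slco3a1 most like Pard3 (0.956), Wasf2 (0.948) and Slc39a10 (0.945).

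Other carriers of organic anions in the kidney moved in both directions in CMS50. Of 16 tested genes on a list of renal organic anion transport, 5 fell (31.2%) and 3 rose (18.8%) against vehicle, beside 11.4% and 19.6% of all genes, and the median difference was -0.22 where that of all genes was 0.05. Slc22a6, the basolateral uptake carrier OAT1, fell by 1.25 (SE 0.26, limma adjusted p = 0.00848). Slc22a12, the urate exchanger URAT1, fell by 1.33 (adjusted p = 0.00352), Slc22a13 by 1.02 (adjusted p = 0.0348), Slc22a7 by 0.91 (adjusted p = 0.0381) and Slc17a3 by 0.65 (adjusted p = 0.00476). Slc22a13 was dim, with a CMS50 mean of 4.56 under the minimum of 5, so it passed only through the groups where it was higher. The 3 that rose were the efflux pumps Abcc2, Abcc3 and Abcc5, by 0.71, 0.76 and 0.55, with adjusted p-values of 0.0201, 0.00506 and 0.0189. Slc17a3 and the 3 pumps were named after their values were seen, to account for every called gene of the list.

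Genes that handle the substrates of these carriers were read from lists as well. Of 14 prostaglandin genes 3 rose (21.4%) and 1, Ptgr2, fell (7.14%), near the shares of all genes, with a median of 0.18, and 0 fell after a further quantile normalization. Hpgd, the dehydrogenase that inactivates prostaglandins after Slco2a1 has taken them up, rose by 1.43 (SE 0.44, adjusted p = 0.0355), and the receptor gene Ptger3 by 0.93 (adjusted p = 0.0178). Of 12 thyroid hormone genes 4 fell (33.3%) and 2 rose (16.7%), beside 11.4% and 19.6% of all genes, with a median of -0.23. At a minimum mean of 6, 1 rose. Dio1, the deiodinase that activates thyroxine, fell by 1.60 (SE 0.21, adjusted p = 0.00221), Iyd, which recovers iodide, by 1.33 (adjusted p = 0.00718), and the carrier gene Slc17a4 rose by 1.92 (adjusted p = 0.00174).

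Of 18 genes of steroid metabolism and sulfate conjugation 6 fell (33.3%) and 2 rose (11.1%), beside 11.4% and 19.6% of all genes. Their median was -0.45, and 1 rose at a minimum mean of 6. Hsd17b2, 1 of the 2 that rose in the main fit, had a vehicle mean of 4.78 and passed the minimum only through the treated groups. The sulfotransferase gene Sult1c2 fell by 1.18 (adjusted p = 0.0306), and Slc13a1, the sulfate carrier of the proximal tubule, rose by 1.07 (adjusted p = 0.00889). Of 12 regulators and scaffolds limma called 0 in CMS50 against vehicle, and 1 was called lower at a minimum mean of 6. At an unadjusted p under 0.05, which 43.4% of all genes reached in either direction, 2 were lower. These were Nr1h4, at -0.39 (limma adjusted p = 0.0926), and Nr1h3, at -0.29 (limma adjusted p = 0.0552). Nr1h4 was also called lower in CMS50 against CMS25, at -0.49 (limma adjusted p = 0.0443). Pdzk1, which encodes a scaffold protein, differed by 0.00 (95% interval -0.28 to 0.28, adjusted p = 0.991). Hnf4a, a tubule and liver transcription factor, differed by -0.22 (-0.47 to 0.03, adjusted p = 0.167). In CMS25 against vehicle 0 genes of any of these lists were called.

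Cell type markers and a reading of RNA quality also differed in CMS50. Markers counted as falling or rising were called against vehicle, beside 11.4% of all genes lower and 19.6% higher. Of 8 kidney identity markers 3 fell (37.5%) and 1 rose (12.5%). Their summed linear intensity was 49511 to 52521 in vehicle, 49414 to 50330 in CMS25 and 33125 to 50144 in CMS50. In such a sum the brightest probe sets weigh most, and these did not all fall. Lrp2 read 13.29, 13.44 and 13.46 in CMS50 replicates 1, 2 and 3, against a vehicle mean of 13.33. Slc34a1 read 13.61, 13.45 and 13.92, against 13.82. Umod, a marker of the thick ascending limb, fell by 1.27 (limma adjusted p = 0.0400). It read 12.64, 11.34 and 13.38 in CMS50 replicates 1, 2 and 3, so replicate 3 was again nearest to vehicle. Among the 8 markers this did not hold for Cdh16 and Lrp2, where replicate 3 lay farthest from the vehicle mean. Slc12a1 and Nphs1 fell by 0.79 and 1.05, and Cdh16 rose by 0.43, with adjusted p-values of 0.0456, 0.0274 and 0.0110. Of 18 proximal tubule markers 6 fell (33.3%) and 3 rose (16.7%), with a median of 0.06, and 3 fell after cyclic loess scaling. Their sum, weighted to bright probe sets in the same way, was 110562 to 113482 in vehicle, 106605 to 122912 in CMS25 and 87830 to 107111 in CMS50. Of 11 macrophage markers 10 rose (90.9%) and 0 fell (1 of the 10, Mrc1, with a vehicle mean of 4.29). The macrophage sum was 3246 to 3393 in vehicle, 2641 to 4056 in CMS25 and 7912 to 13270 in CMS50. It was set mostly by Lyz2, with a vehicle mean of 11.4, where the other called macrophage markers had 4.29 to 7.02. Of 6 fibroblast markers 5 rose (83.3%) and 0 fell. The fibroblast sum was 1715 to 1951 in vehicle, 1206 to 2821 in CMS25 and 3249 to 6875 in CMS50. Of 12 endothelial markers 2 rose (16.7%) and 2 fell (16.7%), near the shares of all genes, and 1 rose after either further scaling. Of 10 collecting duct markers 4 fell (40%) and 0 rose. Of 7 podocyte markers 2 fell (28.6%) and 0 rose, and of 3 adipose markers 1 fell (33.3%). The 1 lymphocyte marker tested, Cd3e, rose but had a vehicle mean of 4.83 and passed the minimum only through CMS50. The beta-actin 3′ minus 5′ reading, which rises as RNA is degraded, was 2.98 ± 0.155 in vehicle, 3.17 ± 0.120 in CMS25 and 3.58 ± 0.0854 in CMS50 (SD, n = 3), and the GAPDH reading was 0.542 ± 0.0286, 0.698 ± 0.209 and 0.816 ± 0.0622. The part of these readings in the Slco differences was not tested.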

How the data were processed

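Kidney RNA of 9 rats, 3 per dose, was read on Affymetrix rat arrays. The deposited values are log2 intensities made by the authors with RMA in Affymetrix Expression Console, per the submitters' processing notes, whose versions the sources used here do not give. This method makes the distributions of the arrays alike, so a shift common to all genes cannot be seen, and it compresses changes of dim probe sets. Gene names are those of the supplied platform annotation. All 13 Slco gene identifiers matched current RefSeq symbols.

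Each gene was read from its brightest probe set (highest mean of all 9 arrays), if that mean reached 5. A single limma model (version 3.58.1, R 4.3.3) held all 3 groups, with Benjamini-Hochberg adjustment over 10337 genes and calls at an adjusted p under 0.05. The fit was tested on simulated data. Promoters were aligned with Biopython 1.88.

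The members and lists were chosen with earlier results of these data known. Named genes were all Slco genes, up to 4 called genes with non-overlapping arrays per list, those with the largest differences, and the 3 genes most like each member. Further genes were named outside this rule, among them Pdzk1, Hnf4a, Nr1h3, Nr1h4, Lrp2, Slc34a1, Slc12a1 and Hsd17b2. Alternatives changed the minimum, scaling, probe set rule, variance model, array weights, groups fitted and replicate block, and left out each array in turn. The labels call the arrays of a dose biological replicates and give no batch.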

Additional observations from a re-analysis of the deposited data

How the results depend on the processing

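In CMS50 against vehicle, Slco1a1 and Slco1a6 kept their call in all 19 alternatives, with differences of -4.67 to -2.99 and -2.74 to -1.66. The members were chosen with this contrast in view and the alternatives refit the same arrays, so kept calls are a description and not support. In the main fit 31.1% of all genes were called. Slco4a1 kept its call in the 18 alternatives that tested it, at 1.20 to 2.23, and was not tested at a minimum mean of 6. Its vehicle mean of 4.92 lay under the minimum of 5, so it passed only through the treated groups. The number of members called, 4, ran from 3 to 5 when 1 array was left out. In CMS50 against CMS25, also 4, it ran from 1 to 6. In CMS25 against vehicle it was 0 in every alternative. Of 339 member differences over alternatives, 314 kept direction and side of the threshold, 15 lost and 6 gained a call, and 4 changed direction, none of them called. These were Slco3a1 in CMS50 against vehicle with its probe sets averaged (-0.048) and, in CMS25 against vehicle without CMS25 replicate 1, Slco2a1, Slco2b1 and Slco4a1. Over the arrays left out, these 3 ran from -0.0353 to 0.302, from -0.00787 to 0.444 and from -0.108 to 0.714. Of 120 list counts, 11 moved by over 1.5 times, 4 of them at a minimum mean of 6, which tested fewer genes. Replicate numbers gave no clear pairing of the rats. Of 9 same-numbered pairs 3 had a correlation of deviations over 0.1 (range -0.183 to 0.263), and 4 of 9 arrays correlated best with their own number. With 3 rats per group, this check cannot decide whether the numbers carry a pairing. With the replicate block, 4, 0 and 5 members were called in CMS50 against vehicle, CMS25 against vehicle and CMS50 against CMS25, and the fall of Ptgr2 was no longer called (0 prostaglandin genes lower). Signal over background limits the dim probe sets, among them those of Slco4a1 and Slco1b2.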
